A study of Homo sapiens with 18 samples.

Results

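The transcriptome of KBM7 cells treated with dCeMM-2 was compared with that of KBM7 cells treated with dCeMM-3. KBM7 is an established human cell line from chronic myelogenous leukaemia. Each compound was given for 5 h at 10 times its own EC50, so the doses were matched as multiples of EC50, and the concentrations themselves are not used here. The comparison took the 3 libraries of each compound, 6 of the 18 libraries of the series, and every gene row of the count tables, 58051 in all, of which 15055 had enough counts to be tested. The other 12 libraries were 3 each of the solvent DMSO, dCeMM-1 and dCeMM-4 at 10 times EC50, and 600 nM THZ531, in the same line and for the same 5 h. They entered the fit, where they help to estimate the spread, and the DMSO libraries give the level without compound. All groups share the culture medium, and the labels name no genetic change in any of them. Whether each library had its own culture is not given by the labels, so a p-value measures the spread between these libraries only. Since RNA was measured in bulk, fewer cells and less RNA per cell cannot be told apart.

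dCeMM-2 and dCeMM-3 are known as molecular glue degraders, small molecules that bring a protein to a ubiquitin ligase which does not normally recognise it. Both are known to remove cyclin K by bringing its partner kinase CDK12 to DDB1, the adaptor of the CRL4 ubiquitin ligases. Cyclin K is the regulatory subunit of CDK12 and CDK13, kinases that phosphorylate the tail of RNA polymerase II and are needed for productive elongation, above all along long genes and genes of DNA repair. Their loss is known to lower short-lived mRNAs and mRNAs of the DNA damage response, while some immediate early and stress genes rise.

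The 6 libraries held 8404212 to 15509920 gene counts. The first principal component of their expression held 73.3% of the variance and separated the compounds, with the second holding 9.35%. BCR and ABL1, whose fusion defines the disease of this line, were both detected, all 6 erythroid markers were at 0, and keratin and collagen markers lay near 0. Summed myeloid and progenitor markers lay between 289 and 300 CPM (counts scaled to a common library total) with dCeMM-2, 181 and 204 CPM with dCeMM-3 and 634 and 671 CPM in DMSO, all 10 of them detected in at least 1 of the 6 libraries. The T cell gene CD3D was found at a mean of 131 CPM while CD3G and CD2 were at 0. Spike-in RNA made up 0.523%, 0.429% and 0.585% of counts with dCeMM-2 and 0.542%, 0.611% and 0.471% with dCeMM-3. These ranges overlap, and the ratio of the means was 0.946 (exact permutation test, two-sided, p = 0.7, where 3 against 3 libraries cannot go below 0.1). Endogenous RNA per unit of spike-in therefore did not differ detectably between the compounds.

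The compounds gave different transcriptomes at the same multiple of EC50. Of 15055 genes, 6488 (43.1%) differed at an adjusted p under 0.05 in edgeR's quasi-likelihood test, 4008 (26.6%) higher with dCeMM-2 and 2480 (16.5%) lower. Counts of list members below are to be read beside these shares of all genes. The higher side held the large differences. At least 2-fold differences were found for 1830 genes (12.2%) that were higher with dCeMM-2 and for 239 (1.59%) that were lower. The median log2 fold change of dCeMM-2 over dCeMM-3 was 0.02, with a 5th percentile of -0.76 and a 95th of 1.91, so the distribution had a long tail on the side of dCeMM-2. For 2339 genes (15.5%) the 95% interval of the difference lay wholly within 0.32 either way on the log2 scale. Log2 fold changes are of dCeMM-2 over dCeMM-3 throughout unless DMSO is named, and levels are CPM after TMM scaling (a scaling that centres the bulk of genes). A level called above, near or either side of DMSO is so on that scale, and where spike-in scaling turns the direction its value is given.

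The balance of higher and lower calls depended on the scaling. Higher genes were 61.8% of those called with TMM, 51.2% with DESeq2's size factors inside edgeR (3535 higher, 3363 lower), 54.4% with DESeq2 (3427 and 2871) and 81.0% with spike-in scaling (2775 and 651). No gene was called in opposite directions by TMM and any of these. With spike-in scaling, calls of at least 2-fold numbered 1840 higher and 157 lower.

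**Figure D1:**
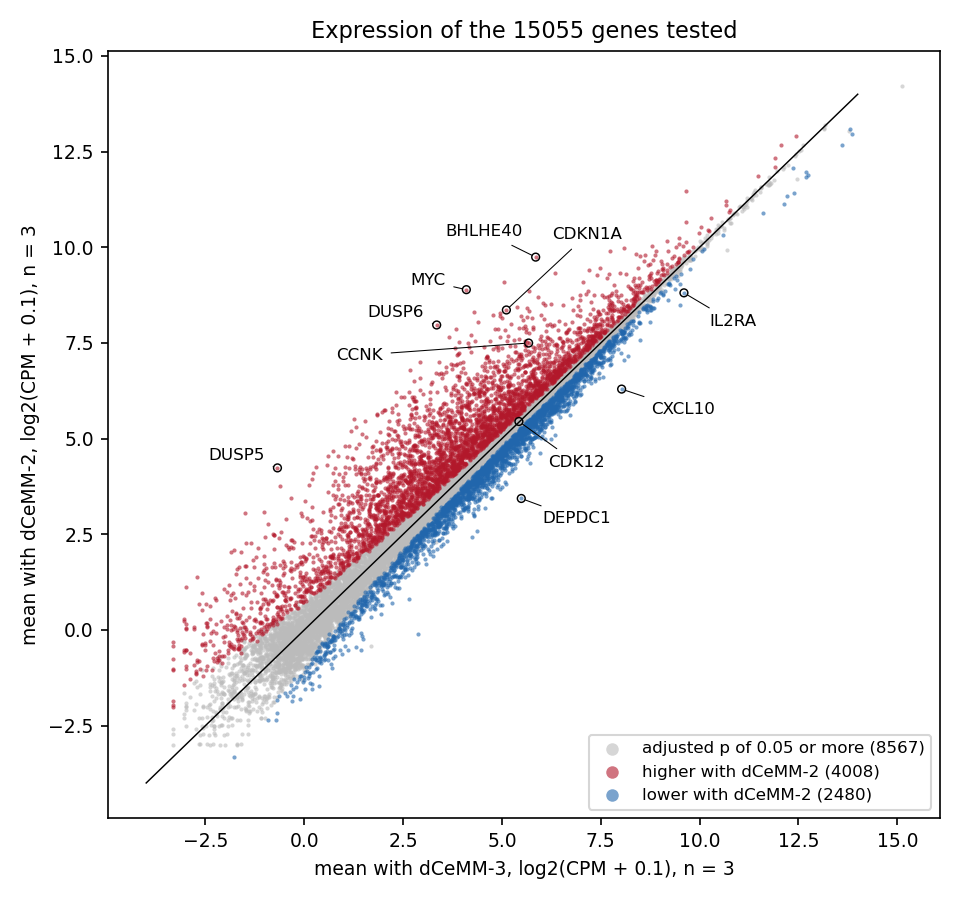
Mean expression of each gene tested with dCeMM-3 (x axis) and dCeMM-2 (y axis), as log2(CPM + 0.1) over 3 libraries each, with the line of equal expression. The 4008 genes higher with dCeMM-2 (red) reach far from the line, with MYC at 475 against 17.0 CPM, while the 2480 lower genes (blue) stay close to it, and CDK12 lies on it.

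The mRNA of the degraded protein differed between the compounds, and that of its kinase partner CDK12 did not differ detectably. CCNK (14:99481169-99535044, GRCh38) stood at 182, 179 and 182 CPM with dCeMM-2 and at 49.5, 54.2 and 49.2 CPM with dCeMM-3. The groups did not overlap, and the DMSO mean of 122 CPM lay between them. The log2 fold change was 1.83 (SE 0.0658, adjusted p = 1.3e-24). This is the mRNA, and cyclin K protein was not measured in these libraries. Against the same DMSO libraries, CCNK was higher by a log2 fold change of 0.57 with dCeMM-2 and lower with dCeMM-3, at -1.26. With spike-in scaling it was lower with both, at -1.22 and -3.09.

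CDK12 stood at 44.6, 41.9 and 44.2 CPM with dCeMM-2 and 41.7, 38.7 and 48.5 CPM with dCeMM-3, overlapping ranges far under the DMSO mean of 179 CPM. Its log2 fold change between the compounds was 0.01, with a 95% interval from -0.14 to 0.17. CDK13, the second kinase that binds cyclin K, did differ. It stood at 51.8, 48.8 and 47.0 CPM with dCeMM-2 and 19.99, 19.4 and 23.7 CPM with dCeMM-3, against 110 CPM in DMSO (log2 fold change 1.23, SE 0.0821, adjusted p = 4.2e-16). DDB1 stood at 329 ± 6.21 and 301 ± 22.9 CPM (SD, n = 3), close to the DMSO mean of 320 CPM with TMM (under it by -1.75 and -1.93 with spike-in scaling), and its difference missed the threshold (log2 fold change 0.13, SE 0.0636, adjusted p = 0.10).

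Of 18 genes of cyclin K, its kinases and the CRL4 machinery, 7 were higher and 2 lower with dCeMM-2 (6 and 0 with spike-in scaling), with a median of 0.09 and 8 inside that interval. The ubiquitin-conjugating enzyme UBE2G1, which works with CRL4 ligases, had the largest difference of the list. It stood at 144, 144 and 139 CPM with dCeMM-2, within reach of the 137 CPM of DMSO with TMM but under it with spike-in scaling (-1.72). With dCeMM-3 it stood at 24.7, 20.7 and 27.97 CPM. The log2 fold change was 2.53 (SE 0.0868, adjusted p = 2.7e-25). The 2 lower members, the splicing factor RBM23 (-0.30) and the NEDD8-activating subunit UBA3 (-0.28), lost their calls with spike-in scaling. The splicing factor RBM39 was higher with dCeMM-2 by 0.95 (SE 0.0753), at 239 ± 25.2 against 123 ± 17.4 CPM.

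**Figure D2:**
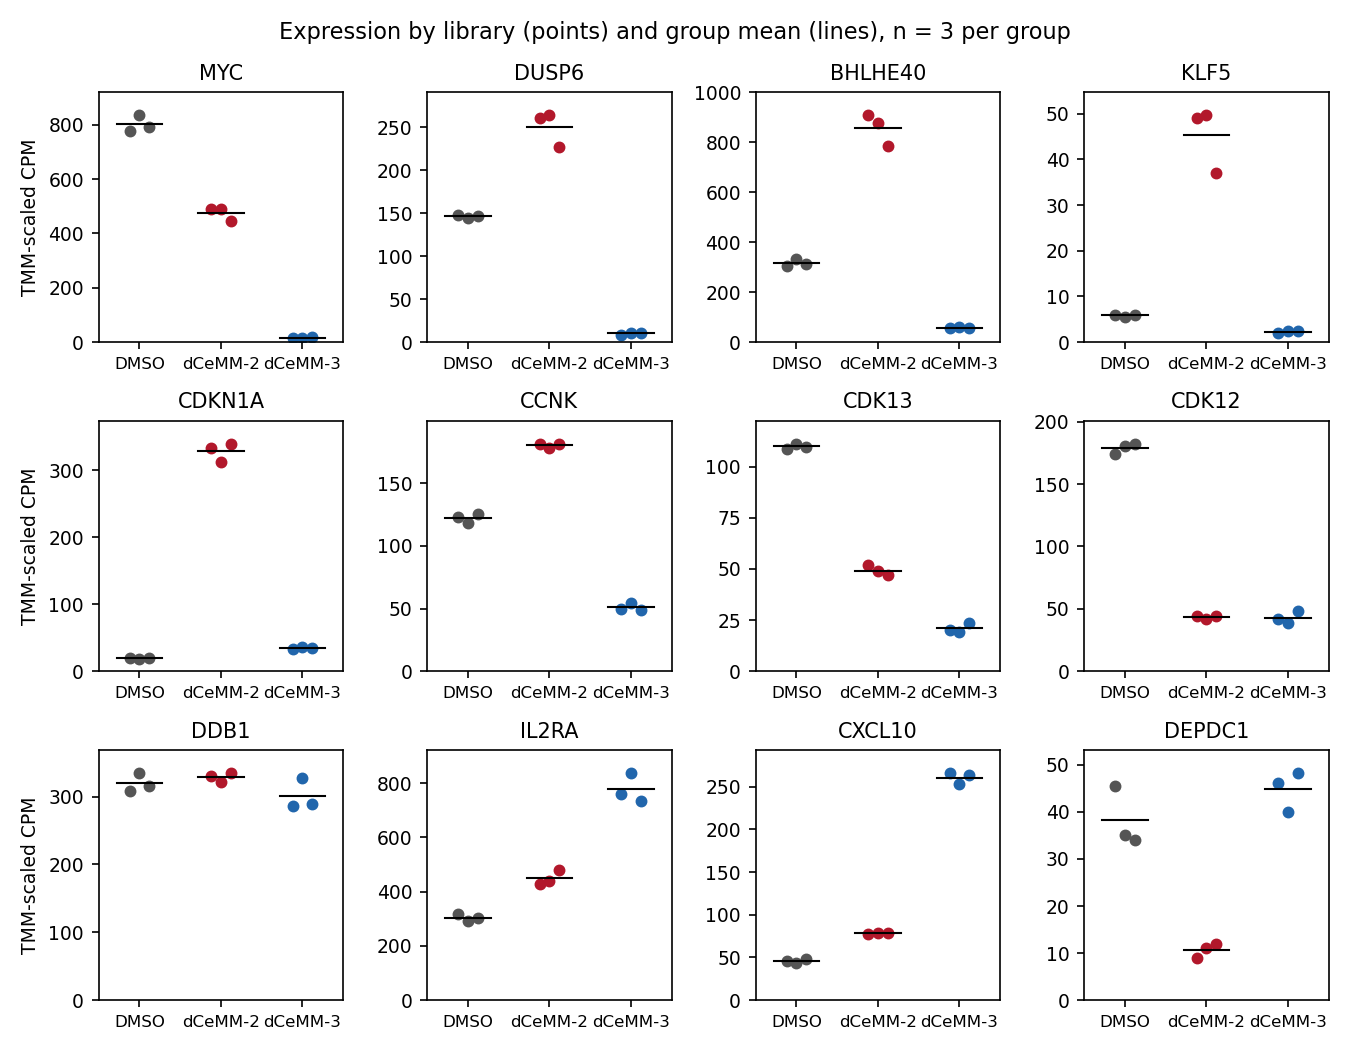
TMM-scaled CPM of 12 genes in each library (points) and group means (lines) for DMSO, dCeMM-2 and dCeMM-3, each panel with its own axis from 0. MYC, DUSP6, BHLHE40, KLF5, CDKN1A, CCNK and CDK13 are separated with dCeMM-2 on top, CDK12 overlaps at 43.5 and 43.0 CPM on average, and IL2RA, CXCL10 and DEPDC1 are separated with dCeMM-3 on top.

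MYC, the transcription factor that drives growth genes and has a very short-lived mRNA, showed the largest log2 fold change among genes above 100 CPM with either compound. It stood at 489, 491 and 445 CPM with dCeMM-2 and at 16.6, 16.9 and 17.6 CPM with dCeMM-3, against 802 ± 31.0 CPM in DMSO. Every dCeMM-3 library was thus far under every dCeMM-2 library, and both compounds were under DMSO. The log2 fold change between the compounds was 4.80 (SE 0.0765, adjusted p = 1.4e-35), a 27.9-fold difference. Of 12 measured genes of the MYC network, 8 were higher with dCeMM-2 and none lower, with a median of 0.98 beside 0.02 over all genes. They include the MYC antagonists MXD1 (2.21) and MNT (2.25), whose proteins share the partner MAX.

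Ribosome biogenesis, a process whose genes MYC is known to activate, followed with 27 of 38 measured genes higher with dCeMM-2 and 2 lower (23 and 0 with spike-in scaling), a median of 0.66. The snoRNP core protein NOP56 stood at 653, 659 and 620 CPM with dCeMM-2, above the DMSO mean of 405 CPM with TMM but under it with spike-in scaling (-1.11), and at 82.9, 78.2 and 81.8 CPM with dCeMM-3 (log2 fold change 2.99, SE 0.0626, adjusted p = 7.5e-32). NOP16 (3.27), a nucleolar protein, and WDR43 (2.18), a subunit of the small-subunit processome, were lower than DMSO with both compounds and further down with dCeMM-3, at log2 fold changes of -1.48 and -1.69 with dCeMM-2 and -4.75 and -3.88 with dCeMM-3. The snoRNP protein NOP10 (-0.36) and the processome subunit UTP20 (-0.45) were lower with dCeMM-2, and both calls were lost with spike-in scaling.

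Immediate early genes, which are induced within minutes of a signal and have short mRNAs, were the list with the largest share of members called in 1 direction. Of 39 measured, 38 were higher with dCeMM-2 and none lower, 34 of them by at least 2-fold, with a median of 1.87 and the same 38 and 0 with spike-in scaling. DUSP6, a phosphatase that switches off the kinase ERK, stood at 261, 264 and 226 CPM with dCeMM-2 and 8.75, 10.5 and 11.0 CPM with dCeMM-3, either side of the 146 CPM of DMSO with TMM and both under it with spike-in scaling, dCeMM-2 by -1.0 (log2 fold change 4.65, SE 0.0923, adjusted p = 1.6e-32). PLK2, a stress-induced kinase, stood at 73.2, 76.8 and 74.2 CPM with dCeMM-2 and 5.79, 6.12 and 6.75 CPM with dCeMM-3, both above the 3.92 CPM of DMSO with TMM, while with spike-in scaling dCeMM-3 was under it (-1.18). JUNB, a subunit of the AP-1 transcription factor, stood at 463, 410 and 369 CPM with dCeMM-2 and 63.1, 58.8 and 56.8 CPM with dCeMM-3, against 71.5 CPM in DMSO. No library of one compound entered the range of the other in these 3 genes.

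FOS, the other AP-1 partner, stood at 81.8, 71.9 and 72.2 CPM with dCeMM-2 and 24.1, 22.7 and 25.3 CPM with dCeMM-3, both above the 13.04 CPM of DMSO with TMM, while with spike-in scaling dCeMM-3 was under it by -0.93 (log2 fold change 1.65, SE 0.0903). ARC, a neuronal activity gene, was near 0 in DMSO at 0.701 CPM and stood at 80.8 ± 10.1 CPM with dCeMM-2 and 22.3 ± 0.450 CPM with dCeMM-3. The list behaved differently against DMSO under each compound, and both contrasts use the same DMSO libraries. With dCeMM-2, 29 members were higher and 4 lower than DMSO, where 37.1% and 41.2% of all genes were. With dCeMM-3, 12 were higher and 19 lower, where 35.9% and 45.1% of all genes were. The median log2 fold change against DMSO was 1.63 and -0.26 with TMM and -0.11 and -2.09 with spike-in scaling, on which the median of all genes was -1.80 with dCeMM-2 and -1.96 with dCeMM-3. The 3 genes that follow were picked after their values were seen. JUN stood at 87.4 and 42.6 CPM against 12.9 CPM in DMSO (-0.09 with dCeMM-3 on the spike-in scale, without a call), EGR1 at 40.8 and 22.5 CPM against 67.5 CPM, and EGR3, the only member without a call, at 1.55 CPM with each compound (interval from -0.63 to 0.67).

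The 12 protein-coding genes with the largest differences in favour of dCeMM-2 lay between log2 fold changes of 4.03 and 5.12. Besides MYC and DUSP6 they were DUSP5, a second phosphatase of the ERK pathway, CXCR4, a chemokine receptor, the transcription factors MSX2, KLF5 and NFIL3, the co-chaperone BAG3, the receptor kinase EPHB3, the pseudokinase TRIB1, the ubiquitin ligase RNF139 and C3orf58. With TMM scaling, 11 of the 12 were higher than DMSO with dCeMM-2 (MYC was not), and all 12 were lower than DMSO with dCeMM-3. Over all genes, 37.1% were called higher with dCeMM-2 and 45.1% lower with dCeMM-3. The 12 were chosen for a wide gap between the compounds in these same libraries, so opposite directions against DMSO follow largely from the choice. KLF5 stood at 49.1, 49.7 and 37.0 CPM with dCeMM-2 and 1.91, 2.49 and 2.46 CPM with dCeMM-3, against 5.85 CPM in DMSO. NFIL3 stood at 148, 133 and 99.9 CPM and 7.76, 5.81 and 8.82 CPM, against 17.8 CPM. In both genes the third dCeMM-2 library was the lowest of its group and still far above every dCeMM-3 library. With spike-in scaling the dCeMM-2 value passed that of DMSO in KLF5 (1.21), NFIL3 (1.08) and C3orf58 (0.87), and in CXCR4 (0.12) without a call. It fell below that of DMSO in the other 8, in EPHB3 (-0.33) without a call.

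The 12 largest differences in the other direction were smaller, between -1.31 and -2.09. DEPDC1, a gene of mitotic progression, led them. It stood at 8.99, 11.2 and 12 CPM with dCeMM-2 and 46.2, 39.9 and 48.3 CPM with dCeMM-3. The DMSO libraries, at 45.5, 35.1 and 34.1 CPM, overlapped those of dCeMM-3 with TMM, while with spike-in scaling dCeMM-3 was under DMSO by a log2 fold change of -1.56. TUBG1, the gamma-tubulin of the centrosome, stood at 5.32 CPM and 18.98 CPM on average, under the 32.3 CPM of DMSO with both compounds. CXCL10, an interferon-induced chemokine, stood at 78.1, 78.8 and 78.2 CPM with dCeMM-2 and 266, 253 and 263 CPM with dCeMM-3, both above the 46.2 CPM of DMSO with TMM, while with spike-in scaling dCeMM-2 was under it by -1.02 (log2 fold change -1.73, SE 0.0675, adjusted p = 1.6e-23). The others were the transporter SLCO4C1, FAF2, which helps to remove proteins from the endoplasmic reticulum, TMEM56, LIN52, a subunit of the DREAM complex, GPR180, ATP6V1C1, a subunit of the vacuolar proton pump, BPNT1, a nucleotide phosphatase, IL10RB, a cytokine receptor chain, and SPRYD7. All 12 kept their call with spike-in scaling.

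**Figure D3:**
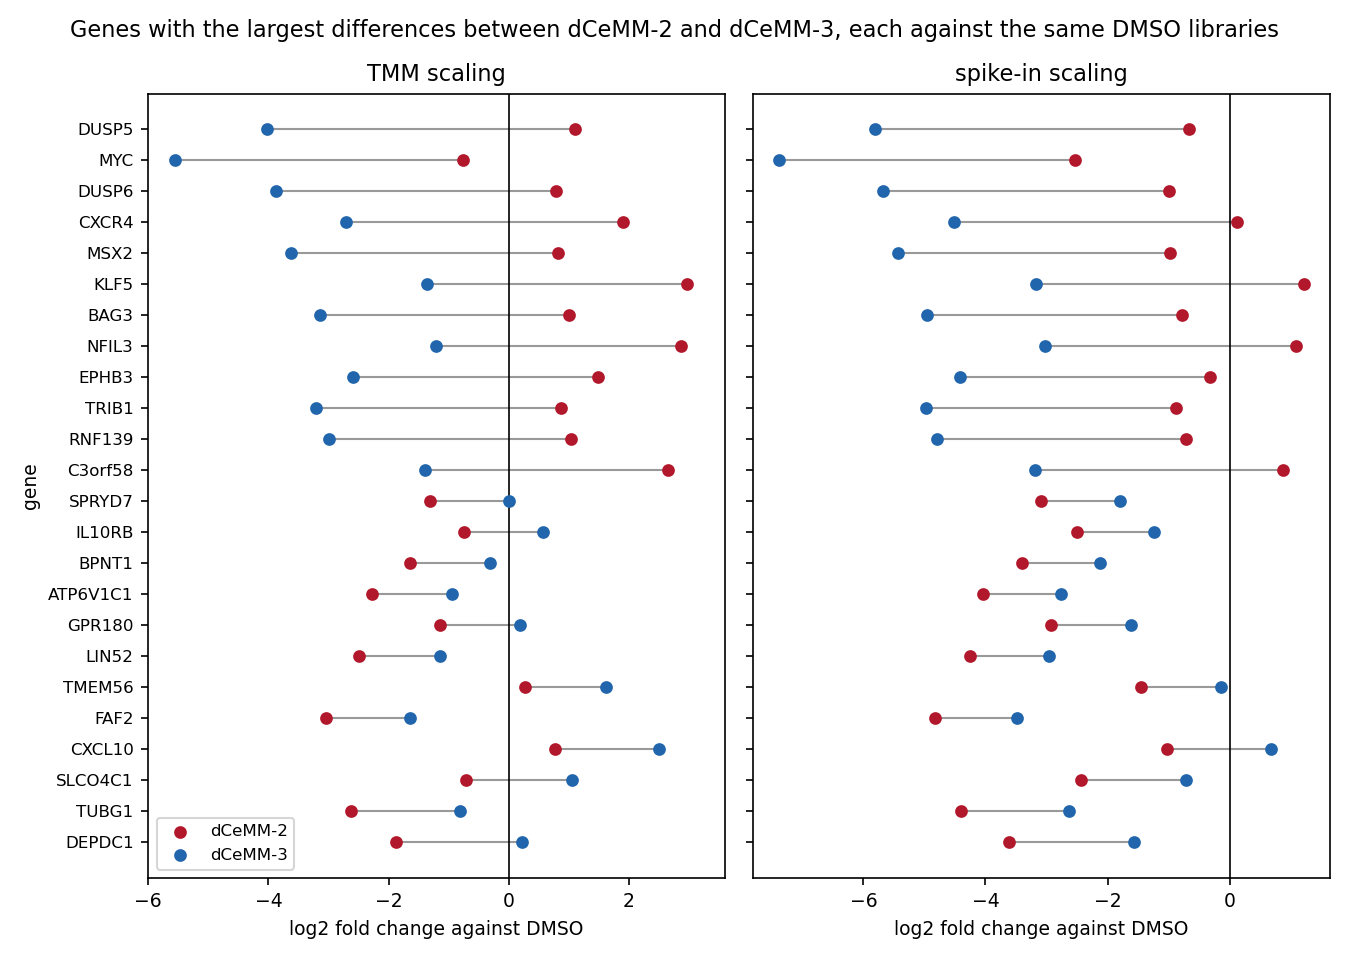
Log2 fold change against DMSO with dCeMM-2 (red) and dCeMM-3 (blue) for the 12 genes highest and the 12 lowest with dCeMM-2, from the fit with TMM scaling (left) and with spike-in scaling (right); both compounds use the same 3 DMSO libraries. In the upper 12 genes the dCeMM-3 points lie far to the left of 0, down to -5.56 for MYC with TMM, and in the lower 12 the order of the compounds is turned with smaller gaps.

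Promoter sequence was available for 8 of the 12 genes on the higher side and 10 of the 12 on the lower, from RefSeq (GRCh38.p14, 250 bases before to 50 after the start site). Both strands were searched. The letters TGACG, the core of the cAMP response element, were in 4 of the 8 (CXCR4, MSX2, NFIL3, EPHB3) and in 4 of the 10 (DEPDC1, FAF2, LIN52, IL10RB), beside 34.5% of 9996 promoters of tested coding genes and 25.01% of all 27305. These occurrences may overlap those of the NRF2 element TGACNNNGC, which was in none of the 8 and in 6 of the 10 (the same 4 genes with SLCO4C1 and CXCL10), beside 14.96% and 13.6%. The letters TATAAA were in 2 of the 8 (CXCR4, KLF5) and none of the 10, beside 5.55% and 11.95%. The full element TGACGTCA was in none of the 8 or the 10. AP-1 (TGANTCA) was in 1 and 0, the E-box CACGTG in 0 and 2, and the heat shock element GAANNTTC in 1 and 1. A match is a description of letters only. The promoters below are shown as 2 examples of each direction whose promoter holds the letters described; capitals mark TGACG or its reverse complement in the first 2 and TGACNNNGC or its reverse complement in the last 2.
NFIL3, chr9:91424577-91424876, minus strand: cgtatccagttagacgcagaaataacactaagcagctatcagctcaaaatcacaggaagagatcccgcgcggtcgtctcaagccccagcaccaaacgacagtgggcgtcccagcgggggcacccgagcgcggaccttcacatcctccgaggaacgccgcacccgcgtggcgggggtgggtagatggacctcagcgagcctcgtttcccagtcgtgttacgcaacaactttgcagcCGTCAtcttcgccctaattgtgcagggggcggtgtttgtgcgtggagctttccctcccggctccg
CXCR4, chr2:136118100-136118399, minus strand: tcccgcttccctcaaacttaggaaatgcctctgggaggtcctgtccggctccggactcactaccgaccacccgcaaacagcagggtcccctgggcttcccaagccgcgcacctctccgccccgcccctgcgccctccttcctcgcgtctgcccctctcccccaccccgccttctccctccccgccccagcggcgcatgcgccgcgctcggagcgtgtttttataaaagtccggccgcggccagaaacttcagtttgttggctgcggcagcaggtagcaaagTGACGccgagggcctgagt
DEPDC1, chr1:68497033-68497332, minus strand: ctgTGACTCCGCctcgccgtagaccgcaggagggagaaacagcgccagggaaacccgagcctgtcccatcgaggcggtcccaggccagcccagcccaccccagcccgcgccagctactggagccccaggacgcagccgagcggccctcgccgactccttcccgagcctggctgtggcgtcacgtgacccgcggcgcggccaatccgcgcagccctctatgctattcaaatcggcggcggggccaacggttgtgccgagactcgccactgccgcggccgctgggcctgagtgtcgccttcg
CXCL10, chr4:76023448-76023747, minus strand: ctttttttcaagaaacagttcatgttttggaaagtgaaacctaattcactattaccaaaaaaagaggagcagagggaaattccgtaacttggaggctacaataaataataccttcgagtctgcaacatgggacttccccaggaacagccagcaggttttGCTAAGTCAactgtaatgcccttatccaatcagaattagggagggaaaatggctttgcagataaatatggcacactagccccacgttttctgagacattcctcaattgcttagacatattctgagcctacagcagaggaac

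CDKN1A, the CDK inhibitor p21 and a target of p53, had the lowest adjusted p of the p53 targets measured. It stood at 334, 313 and 340 CPM with dCeMM-2 and 33.3, 35.7 and 34.5 CPM with dCeMM-3, against 19.4 CPM in DMSO (log2 fold change 3.26, SE 0.0739, adjusted p = 1.3e-30). Both compounds were above DMSO, by log2 fold changes of 4.09 and 0.84 with TMM, while with spike-in scaling the second turned to -0.99. Of 31 measured p53 targets, 21 were higher with dCeMM-2 and 2 lower, with a median of 0.77. The stress sensor SESN2 (2.07) and the decoy death receptor TNFRSF10D (1.65) were among the higher ones. TNFRSF10D stood at 256, 252 and 238 CPM with dCeMM-2 and 76.7, 77.7 and 82.6 CPM with dCeMM-3, both above the 28.1 CPM of DMSO with TMM, while with spike-in scaling dCeMM-3 differed from it by -0.33 without a call. The lower members were the death receptor FAS (-0.62) and the ribonucleotide reductase subunit RRM2B (-0.61), and both calls were kept with spike-in scaling.

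Other cell cycle brakes and survival genes did not move as one. Of 18 CDK inhibitors and G1 cyclins, 5 (27.8%) were higher and 6 (33.3%) lower with dCeMM-2, beside 26.6% and 16.5% of all genes tested. With spike-in scaling 4 were higher and 0 lower. The inhibitors CDKN2D (2.80) and CDKN1B (2.23) were higher, and the pocket proteins RBL2 (-0.56) and RB1 (-0.45) and the kinase CDK6 (-0.40) were lower, the last 3 without a call in spike-in scaling. Of 32 genes of the BCL2 family and death receptors, 11 (34.4%) were higher and 11 (34.4%) lower, both above the shares of all genes. With spike-in scaling 7 were higher and 5 lower. MCL1, a survival protein with a short-lived mRNA, stood at 199, 199 and 155 CPM with dCeMM-2, close to the 202 CPM of DMSO with TMM scaling only, and at 47.9, 39.8 and 61.2 CPM with dCeMM-3 (log2 fold change 1.89, SE 0.101). BCL2L1, which encodes the survival protein BCL-xL, was higher by 1.45. The death ligand TNFSF10 (TRAIL) was lower, at 97.2 ± 6.79 against 190 ± 4.47 CPM (log2 fold change -0.97), as was the apoptosome protein APAF1 (-0.79).

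Genes of transcription elongation were mostly higher with dCeMM-2. Of 33 measured, 21 (63.6%) were higher and 2 (6.06%) lower (20 and 0 with spike-in scaling), with a median of 0.80. The shares over all genes were 26.6% and 16.5%. The elongation factor ELL stood at 57.4, 51.0 and 47.7 CPM with dCeMM-2 and 4.41, 4.66 and 4.53 CPM with dCeMM-3, either side of 30.0 CPM in DMSO with TMM and both under it with spike-in scaling, dCeMM-2 by -0.99 (log2 fold change 3.53, SE 0.109, adjusted p = 1.1e-26). The PAF complex subunit LEO1 was higher by 2.73. HEXIM1, an inhibitor of the elongation kinase P-TEFb, was higher by 1.34, at 58.4 ± 10.5 against 23.0 ± 4.75 CPM. LARP7 (-0.51), which binds the 7SK RNA of the same complex, and SUPT4H1 (-0.28) were lower and lost their call with spike-in scaling.

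The rest of the polymerase machinery was divided. Of 33 Mediator genes 17 (51.5%) were higher and 2 (6.06%) lower (11 and 0 with spike-in scaling), with a median of 0.32. MED26, a Mediator subunit that contacts elongation factors, stood at 40.4, 39.6 and 37.3 CPM with dCeMM-2 and 2.43, 1.97 and 2.78 CPM with dCeMM-3, either side of 15.3 CPM in DMSO with TMM, while with spike-in scaling dCeMM-2 differed from it by -0.42 without a call (log2 fold change 4.01, SE 0.136). Of 41 genes of RNA polymerase II and the general factors, 16 (39.0%) were higher and 13 (31.7%) lower, with a median of 0.01. These shares stand beside 26.6% and 16.5% of all genes tested. With spike-in scaling 11 of the 41 were higher and 2 lower, and without dCeMM-2 replicate 2 there were 8 lower. The largest polymerase subunit, POLR2A, was higher by 2.05 and the initiation factor GTF2B by 3.15, while the TFIIH subunit GTF2H1 (-0.88) and the TFIID subunit TAF2 (-0.57) were lower.

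Splicing genes were more often higher than lower with dCeMM-2. Of 45 core spliceosome genes 27 were higher and 1 lower (20 and 0 with spike-in scaling, median 0.29), and of 41 SR and hnRNP genes 24 were higher and 3 lower (19 and 0, median 0.31). The splicing regulators SRSF7 (1.92), TRA2B (1.90) and the kinase CLK1 (2.30) were higher. SRSF7 with dCeMM-2, at 420, 413 and 401 CPM, was near the 421 CPM of DMSO with TMM (-1.81 with spike-in scaling), and with dCeMM-3 it stood at 106, 108 and 111 CPM. Of 40 genes of cleavage, polyadenylation and Integrator, 15 were higher and 9 lower (12 and 1 with spike-in scaling, and 5 lower without dCeMM-3 replicate 3). These are 37.5% and 22.5%, beside 26.6% and 16.5% of all genes tested. SCAF4 (2.43) and SCAF8 (2.0), proteins that prevent early termination, and CLP1 (3.16), a cleavage factor subunit, were higher. The cleavage factor CPSF2 was lower, at 66.8, 74.3 and 72.8 CPM against 132, 118 and 130 CPM (log2 fold change -0.84, SE 0.0731).

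Stress and protein quality genes were higher with dCeMM-2 in different degrees. Of 21 heat shock and chaperone genes, 15 were higher and 1 lower (10 and 1 with spike-in scaling), with a median of 0.27. BAG3 stood at 107, 117 and 109 CPM with dCeMM-2 and 5.19, 6.74 and 7.07 CPM with dCeMM-3, either side of 55.5 CPM in DMSO with TMM and both under it with spike-in scaling, dCeMM-2 by -0.78 (log2 fold change 4.15, SE 0.101). HSPA8, the constitutive HSP70 chaperone, stood at 2862, 2826 and 2815 CPM with dCeMM-2 and 749, 869 and 786 CPM with dCeMM-3, both under the 6418 CPM of DMSO. The lower member was HSPA4L (-0.89). Of 34 ATF4 targets and unfolded protein response genes, 18 were higher and 4 lower, and 10 and 0 with spike-in scaling. HSPA5, the main chaperone of the endoplasmic reticulum, was higher by 1.44 and the transcription factor XBP1 by 1.52, the latter at 124 ± 6.77 and 43.0 ± 2.47 CPM, both far under the 976 CPM of DMSO.

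Of 28 NRF2 and glutathione genes, 14 were higher and 2 lower (8 and 0 with spike-in scaling), led by BACH1 (2.49), a repressor of NRF2 targets, and MAFK (2.54), its partner. The cystine transporter SLC7A11 was lower, at 106 ± 11.3 against 153 ± 18.2 CPM, both above the 12.6 CPM of DMSO (log2 fold change -0.53, adjusted p = 5.8e-07, and 0.073 with spike-in scaling). Of 36 proteasome genes, 19 were higher and 2 lower, with PSMD12 (2.05) and PSMD7 (1.73) in front. Spike-in scaling gave 9 higher and 0 lower, and leaving out dCeMM-3 replicate 3 gave 5 lower. Of 18 FOXO targets, 12 were higher and 3 lower, with a median of 1.37. CITED2 (3.61), a transcriptional coregulator, stood at 58.3 ± 4.02 and 4.85 ± 0.557 CPM, and TXNIP (1.64), an inhibitor of glucose uptake, at 437 ± 46.0 and 140 ± 7.55 CPM. PIK3IP1 (-0.91), SESN3 (-1.0) and PINK1 (-0.69) were the lower ones.

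Metabolic lists held calls in both directions. Of 32 glycolysis and hypoxia genes, 11 (34.4%) were higher and 4 (12.5%) lower (10 and 0 with spike-in scaling), with 13 inside that interval. The glucose transporter SLC2A1 (1.95), the hypoxia factor HIF1A (1.15) and the mTOR inhibitor DDIT4 (1.73) were higher. Of 29 cholesterol and lipid genes, 9 (31.0%) were higher and 6 (20.7%) lower, and 6 and 0 with spike-in scaling. These shares are near the 26.6% and 16.5% of all genes tested. Squalene epoxidase SQLE was higher (0.96). The desaturase SCD, at 685 ± 22.7 against 863 ± 13.3 CPM, had a log2 fold change of -0.33. Of 55 translation factors and tRNA synthetases, 23 were higher and 11 lower (11 and 0 with spike-in scaling), led by the initiation factor subunits EIF3B (1.53) and EIF3A (1.41) and by EIF4G1 (1.35).

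Cytokine and interferon genes differed in both directions. Of 27 interferon response genes, 5 (18.5%) were higher and 11 (40.7%) lower with dCeMM-2, beside 26.6% and 16.5% of all genes tested. The median of the list was -0.17, and with spike-in scaling 4 were higher and 4 lower. Besides CXCL10, the antiviral protein RSAD2 (viperin) was lower with dCeMM-2, at 52.7, 50.5 and 57.3 CPM against 101, 98.1 and 99.3 CPM (log2 fold change -0.90), under the 205 CPM of DMSO with both. IFIT1 (1.16) and IFIT2 (0.84), which bind viral RNA, were higher. Of 35 NF-kB pathway and cytokine genes, 19 were higher and 4 lower, with a median of 0.81. NFKB1 (1.75), NFKBIZ (2.27) and the kinase PIM1 (2.42) were higher. PIM1, which encodes a kinase with a short-lived mRNA, stood at 379, 360 and 348 CPM with dCeMM-2 and 68.7, 65.7 and 68.5 CPM with dCeMM-3, both under the 526 CPM of DMSO. BIRC3, an inhibitor of apoptosis and NF-kB target, was lower (-0.78). IL2RA, the alpha chain of the interleukin 2 receptor, stood at 428, 439 and 478 CPM with dCeMM-2 and 760, 838 and 735 CPM with dCeMM-3, both above the 304 CPM of DMSO with TMM and both under it with spike-in scaling, by -1.23 and -0.48 (log2 fold change -0.80, SE 0.0593, adjusted p = 1.1e-14).

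Transcription factors of blood development were mostly higher with dCeMM-2. Of 29 measured, 18 were higher and 1 lower (15 and 0 with spike-in scaling), with a median of 0.71. HHEX, a homeobox factor of haematopoietic progenitors, stood at 262, 280 and 254 CPM with dCeMM-2 and 22.5, 18.04 and 22.6 CPM with dCeMM-3, either side of 65.5 CPM in DMSO (log2 fold change 3.65, SE 0.0885). GATA2, a factor of stem and progenitor cells, stood at 121, 120 and 119 CPM, near the 132 CPM of DMSO with TMM (-1.93 with spike-in scaling), and at 21.9, 25.1 and 20.2 CPM with dCeMM-3. GATA2 is also among the myeloid markers whose sum was higher with dCeMM-2, and it makes up much of that gap. HOXA9 (1.97) was higher and HOXB9 (-0.51) lower, the latter without a call in spike-in scaling, and of 21 HOX genes 12 were higher and 2 lower (8 and 1 with spike-in scaling). Of 175 zinc finger genes on chromosome 19, 49 were higher and 18 lower (43 and 5 with spike-in scaling, 58 and 11 without dCeMM-3 replicate 3). These are 28% and 10.3%, beside 26.6% and 16.5% of all genes tested.

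Genes of mRNA turnover included several with short-lived mRNAs of their own. Of 37 measured, 21 were higher and 6 lower with dCeMM-2 (16 and 3 with spike-in scaling), with a median of 0.41. ZFP36L1, which binds AU-rich elements and brings mRNAs to decay, stood at 119, 120 and 113 CPM with dCeMM-2 and 12.95, 9.02 and 13.98 CPM with dCeMM-3, either side of 24.0 CPM in DMSO (log2 fold change 3.27, SE 0.101). The antiproliferative genes BTG1 (3.57) and TOB1 (3.27), whose proteins recruit deadenylases, were higher too. The deadenylase CNOT6 (-0.90), the exonuclease XRN1 (-0.59) and the surveillance factor UPF3B (-0.61) were lower, and all 3 calls were kept with spike-in scaling.

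DNA repair genes, the class best known to need cyclin K, had a median difference near 0 between the compounds, as did all genes. Of 45 homologous recombination and Fanconi genes, 8 (17.8%) were higher and 12 (26.7%) lower with dCeMM-2, beside 26.6% and 16.5% of all genes. The median of the list was -0.01, beside 0.02 over all genes, and 9 members lay inside that interval. With spike-in scaling 3 were higher and 1 lower. Both compounds lowered most of them: 34 were under DMSO with dCeMM-2 and 35 with dCeMM-3, where 41.2% and 45.1% of all genes were. BRCA1 stood at 23.8, 19.9 and 20.6 CPM with dCeMM-2 and 25.3, 23.9 and 32.3 CPM with dCeMM-3, ranges that nearly touch, against 52.7 CPM in DMSO. Its log2 fold change of -0.34 (adjusted p = 0.012) lost its call with spike-in scaling, without dCeMM-2 replicate 2 and without dCeMM-3 replicate 3. ATR, the kinase that senses stalled forks, stood at 32.0, 32.8 and 31.4 CPM and 43.4, 36.7 and 48.8 CPM (log2 fold change -0.43, without a call in spike-in scaling). The ubiquitin ligase RNF168 was higher with dCeMM-2 (1.82).

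Replication and mitosis genes split in both directions. Of 43 replication and E2F targets, 16 (37.2%) were higher and 12 (27.9%) lower, beside 26.6% and 16.5% of all genes tested. With spike-in scaling 11 were higher and 1 lower. PCNA, the sliding clamp and also a p53 target, stood at 625, 615 and 617 CPM with dCeMM-2 and 165, 167 and 179 CPM with dCeMM-3, either side of the 229 CPM of DMSO with TMM, while with spike-in scaling dCeMM-2 differed from it by -0.35 without a call (log2 fold change 1.86, SE 0.0571). The phosphatase CDC25A (2.31) and GINS3 (3.03), a subunit of the replicative helicase, were higher, and the clamp loader subunit RFC2 (-0.68) was lower. Of 42 mitosis genes, 15 (35.7%) were higher and 18 (42.9%) lower, both above the shares of all genes, with a median of 0.00. With spike-in scaling 8 were higher and 4 lower. CKS2, a small partner of CDKs, stood at 102, 102 and 95.7 CPM with dCeMM-2 and 15.3, 16.7 and 12.9 CPM with dCeMM-3, against 119 CPM in DMSO. The microtubule proteins HMMR (-0.91) and KIF2C (-0.87) were lower and kept their calls with spike-in scaling.

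Cytosolic ribosomal proteins were the list with the largest share of members close to no difference. Of 81 measured, 74 had a 95% interval within 0.32 either way, 3 were higher and 1 lower, with a median of -0.02 (-0.10 and 15 lower with DESeq2's size factors, and 12 lower without dCeMM-3 replicate 3). Their reads can be shared with processed copies, which may touch single members. Of 72 nuclear genes of oxidative phosphorylation, 48 lay within that interval, 13 were higher and 4 lower (4 and 0 with spike-in scaling, 6 and 9 with DESeq2's size factors, and 8 to 21 higher and 3 to 9 lower when single libraries were left out). Of 78 mitochondrial ribosomal proteins 39 were higher and 12 lower (26 and 2 with spike-in scaling), with a median of 0.24. MRPL44 stood at 56.1, 53.6 and 53.5 CPM with dCeMM-2, near the 49.0 CPM of DMSO with TMM but under it with spike-in scaling (-1.62), and at 6.58, 6.74 and 6.36 CPM with dCeMM-3 (log2 fold change 3.06, SE 0.103).

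Mitochondrially encoded mRNAs made up the list with the lowest median, -0.76, with 10 of 13 lower with dCeMM-2 and none higher. The number of calls depended on the fit and on single libraries. With spike-in scaling all 13 were lower and with DESeq2 12. Only 5 were when the 6 libraries were fitted alone, and 2 with no filter on low counts. Without dCeMM-2 replicate 3 none passed, and without dCeMM-2 replicate 2 or without dCeMM-3 replicate 2 only 1 did. The medians without these libraries were -0.61, -0.70 and -0.66. Mitochondrial genes took 9.10%, 6.90% and 5.09% of gene counts with dCeMM-2 and 10.5%, 14.9% and 13.5% with dCeMM-3, against 5.14% ± 0.662 in DMSO. The groups did not overlap (exact permutation test, two-sided, p = 0.1, the smallest that 3 against 3 allows). MT-ND5, a subunit of complex I, stood at 4700, 3399 and 2855 CPM with dCeMM-2 and 5134, 8360 and 6440 CPM with dCeMM-3. Replication-dependent histones, of which 2 of 40 measured were higher and 11 lower, had a median of -0.22, and 0 were higher and 4 lower with spike-in scaling. Their mRNAs normally lack a poly-A tail, these libraries were enriched for poly-A RNA, and near-identical copies can share reads, so their level in the cell is uncertain.

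**Figure D4:**
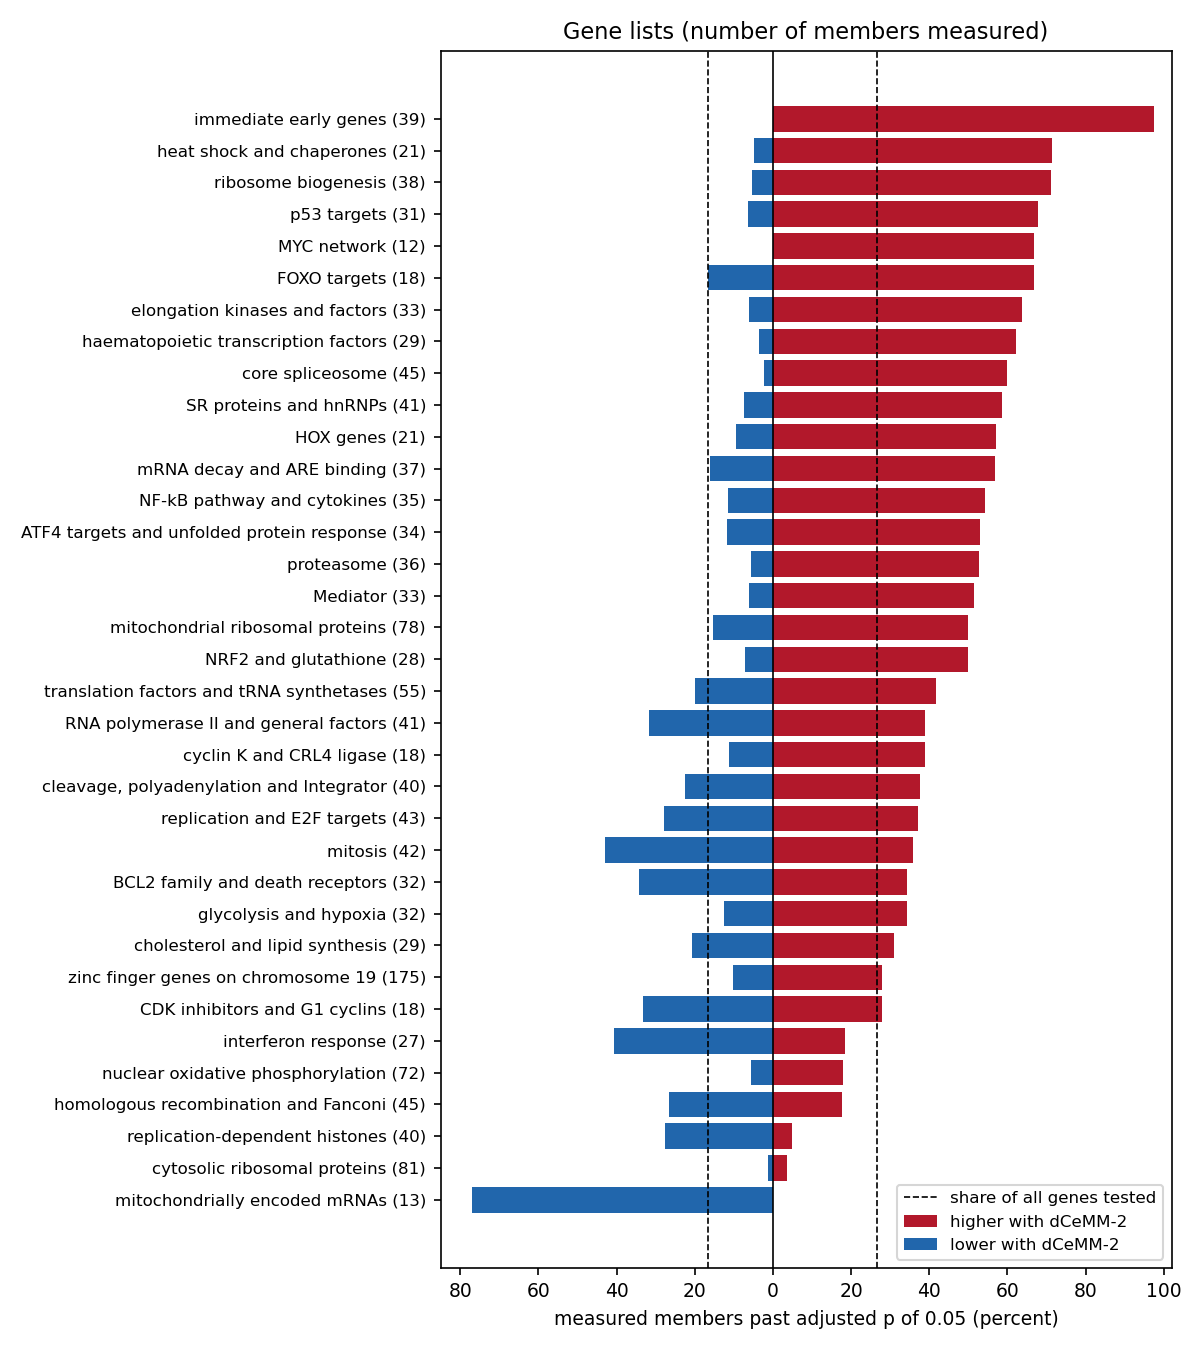
Share of the measured members of 35 gene lists that were higher (red, right) or lower (blue, left) with dCeMM-2 at an adjusted p under 0.05, with dashed lines at the shares over all genes tested, 26.6% and 16.5%. Immediate early genes (38 of 39) lie at the top, and cytosolic ribosomal proteins (3 of 81) and mitochondrially encoded mRNAs (0 of 13) at the foot.

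Of the 35 lists, 24 kept the sign of their median in every alternative of scaling, filter, software, block and left-out library. The other 11 (homologous recombination, replication, mitosis, cytosolic ribosomal proteins, nuclear oxidative phosphorylation, RNA polymerase II, cholesterol, glycolysis, BCL2 family, CDK inhibitors and zinc fingers) had medians within 0.10 of 0 that changed sign in at least 1 of them.

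The difference between the compounds varied with the number of exons of a gene, counted in the annotated transcript with the most exons. Among protein-coding genes, 180 of 378 with 2 exons were higher with dCeMM-2 and 25 lower, with a median of 0.55. With 3 exons 257 of 592 were higher and 51 lower, with a median of 0.29, and with 12 or more exons 1407 of 4959 were higher and 979 lower, with a median of 0.01. Over all 12332 coding genes, 30.6% were higher and 18.04% lower. Against DMSO, the median of genes with 2 exons was -0.38 with dCeMM-2 and -1.36 with dCeMM-3, that of genes with 6 exons -0.08 and -0.23, and that of genes with 12 or more -0.21 and -0.34. As 1 value a library, 2-exon minus other genes gave 0.24, 0.25 and 0.12 with dCeMM-2 and -0.17, -0.24 and -0.13 with dCeMM-3, values centred on the mean of the 6 libraries. The groups did not overlap, with a difference of 0.39 (exact permutation test, two-sided, p = 0.1, the smallest possible), and this measure was chosen after the medians by exon number had been seen. Single-exon genes did not follow, with 69 of 219 higher and 29 lower, and their difference from multi-exon genes was 0.11 (exact p = 0.2).

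**Figure D5:**
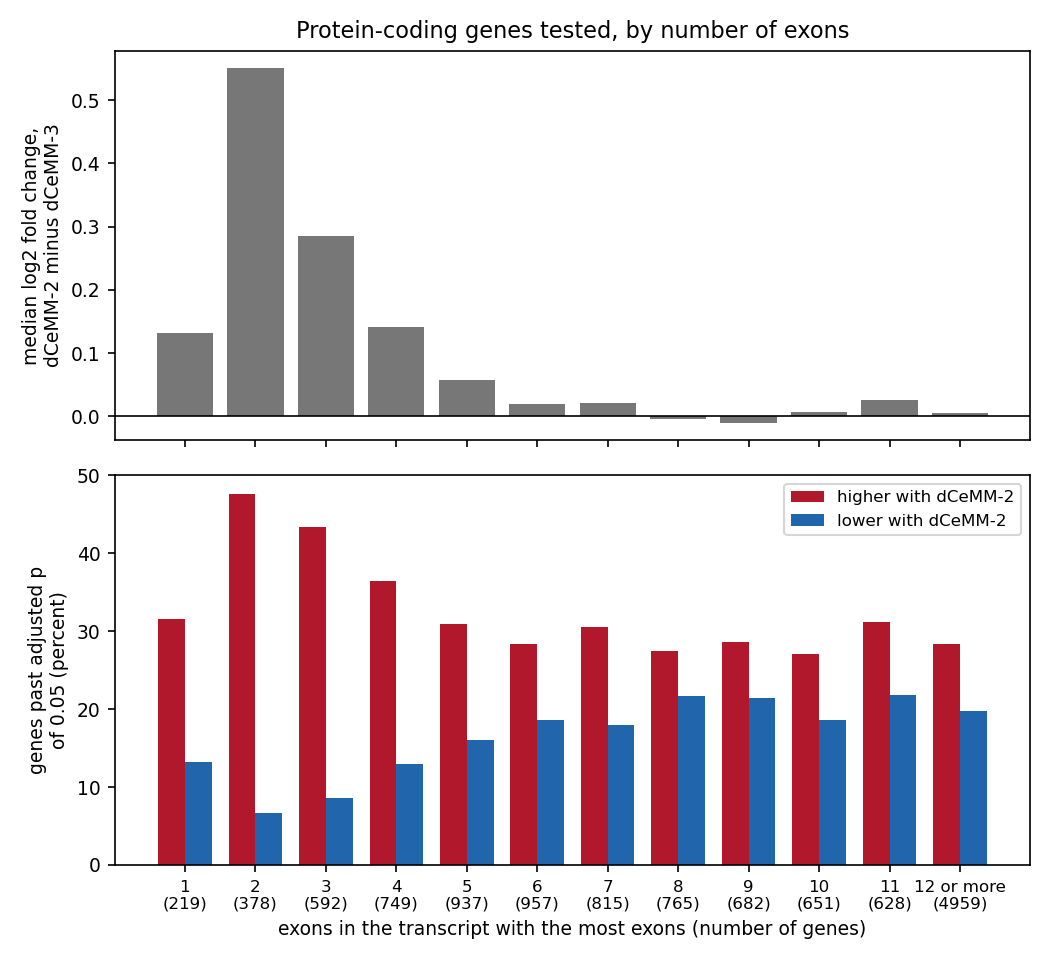
Median log2 fold change of dCeMM-2 over dCeMM-3 (top) and share of genes higher (red) and lower (blue) at an adjusted p under 0.05 (bottom), for protein-coding genes grouped by exons in their longest-spliced annotated transcript, with the number of genes in brackets. The median is 0.55 at 2 exons, 0.29 at 3 and near 0 from 6 exons on.

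Long genes did not differ detectably from short genes, in a contrast that leaves out the spans between 20 and 100 kb. The difference between 2388 genes that span at least 100 kb and 4346 under 20 kb was 0.00 on the log2 scale (exact permutation test, two-sided, p = 1.0, with -0.04, 0.05 and -0.01 in the dCeMM-2 libraries and -0.01, -0.06 and 0.09 in the dCeMM-3 libraries). By class of span, 10.3% of coding genes under 10 kb were lower with dCeMM-2, 24.7% at 50 to 100 kb and 9.4% at 500 kb or more. The shares higher were 31.4%, 27.7% and 25.5%, and the medians 0.06, -0.04 and 0.17. This variation with span was not tested. Non-coding classes differed among themselves. Of 127 sense-intronic genes 41 were higher with dCeMM-2 and 8 lower (median 0.45), while of 428 lincRNAs 30 were higher and 70 lower (-0.12) and of 569 antisense genes 28 were higher and 54 lower (-0.14). The strand setting of the counting is not given in the sources used here, so reads of an antisense or sense-intronic gene and of its partner cannot be told apart. The largest differences among non-coding genes were those of the pseudogenes RPS20P22 (5.06), CHMP4BP1 (3.96) and UBE2FP1 (3.58) and of AC125257.1 (3.72) and AC008895.1 (3.10), and in the other direction of AC108134.2 (-3.14), the pseudogene ZNF702P (-1.94), LINC01355 (-1.40), DHRS4-AS1 (-1.35) and AC015871.3 (-1.27). Pseudogenes can take reads of their parent genes, so these values are uncertain.

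The 10 largest CPM differences in favour of dCeMM-2 included abundant housekeeping genes with small folds and genes with large ones. Beta-actin (ACTB) stood at 6531 ± 74.6 CPM with dCeMM-2 and 4296 ± 330 CPM with dCeMM-3, against 3199 CPM in DMSO, and with spike-in scaling both compounds were under DMSO, by -0.76 and -1.42 (log2 fold change 0.60, SE 0.0582, adjusted p = 1.5e-11). BHLHE40, a transcriptional repressor of the circadian and stress response, stood at 909, 875 and 786 CPM with dCeMM-2 and 57.3, 59.6 and 56.1 CPM with dCeMM-3, against 317 CPM in DMSO, from which dCeMM-2 differed by -0.35 with spike-in scaling (log2 fold change 3.89, SE 0.0732). The metallothionein MT1E, a metal-binding protein, stood at 964, 940 and 951 CPM and 213, 208 and 215 CPM, against 167 CPM, from which dCeMM-3 differed by -1.47 with spike-in scaling (log2 fold change 2.17). On the other side, the nuclear RNA MALAT1 stood at 4188, 4352 and 4433 CPM with dCeMM-2 and 5844, 4344 and 5699 CPM with dCeMM-3, both far above the 649 CPM of DMSO. Its groups overlapped, and its log2 fold change of -0.29 (adjusted p = 0.034) lost its call in 5 of the 6 fits that left out 1 library. The ribosomal proteins and ENO1 on that side had log2 fold changes between -0.09 and -0.13 without a call.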

How the data were processed

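Poly-A enriched libraries were made with a total RNA kit after ERCC and SIRV spike-in RNA was added, per the labels' protocols. Each library has 1 table of gene counts as the authors deposited it, not normalized. HTSeq 0.11.2, STAR 2.5.2b, Trimmomatic 0.32 and Picard are named, with the build GRCh38.p7, in the submitters' processing notes, without roles. Strand setting and use of molecular identifiers are not given in the sources used here. Lines that name no gene stayed out of library sizes and tests; of the counts assigned or assignable, 7.42% to 13.2% lay outside genes and 1.94% to 2.09% were ambiguous in the 6 libraries, and reads placed at several positions were not used. Of 58051 gene identifiers 57447 matched GENCODE release 29, which gave names and exons.

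Counts were fitted with edgeR 4.0.16 in R 4.3.3 (filterByExpr by group, TMM on endogenous genes, robust quasi-likelihood test) over all 18 libraries with 1 coefficient per group and 12 residual degrees of freedom. The contrast was dCeMM-2 minus dCeMM-3, with Benjamini-Hochberg adjustment over 15055 genes and a threshold of 0.05. Standard errors and 95% intervals are those of the log2 fold change. Each compound was also set against DMSO in the same fit. The 35 gene lists matched all but 3 of their symbols and are described by counts and medians only. The members and the lists were chosen with earlier results of these data known. Named genes follow a fixed rule: the 12 coding and 5 non-coding genes with the largest change in each direction that passed the threshold with groups that did not overlap and a mean of at least 5 CPM in the higher group, up to 3 members of each list in each direction by adjusted p, the 10 nuclear genes with the largest CPM difference in each direction, and 12 genes of the compounds' known biology. EGR1, JUN and EGR3 were added after their values were seen. Counts were simulated at 14542 genes, with 50 genes of at least 5 CPM changed at each size and the rest unchanged. The same test called 16% of those changed by 0.25 on the log2 scale. It called 80% at 0.5 and 100% at 1.0. Pairs of libraries of 1 group differed by more than counting noise, with a chi-square per degree of freedom of 5.74 to 14.7. Alternatives were spike-in scaling, DESeq2 size factors, DESeq2 1.42.0, leaving out mitochondrial genes, 2 other filters, fitting only the 6 libraries, a replicate block and leaving out each library in turn. Measures per library were compared by exact permutation tests. Some genes that the rule names are not reported here.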

Additional observations from a re-analysis of the deposited data

Results flagged for a closer look

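Counts outside annotated genes were above every DMSO library in all 3 dCeMM-2 libraries. They made up 10.1%, 11.8% and 13.2% of counts (mean 11.7%) with dCeMM-2, against 6.62% to 7.43% in DMSO. With dCeMM-3 the shares were 10.0%, 7.42% and 9.30%, so that 1 library lay inside the DMSO range, and the ranges of the compounds did not overlap (exact permutation test, two-sided, p = 0.1, the smallest that 3 against 3 allows). These counts belong to no gene row and enter no comparison above. Their part in any gene's value was not tested.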

How the results depend on the processing

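Spike-in scaling left 651 genes lower with dCeMM-2 in place of 2480, and 157 in place of 239 at 2-fold or more; the spike-in counts themselves varied between libraries of 1 group, and the cause was not tested. All other counts of called genes stayed within 1.5 times those reported, at 2775 to 4022 higher over all alternatives and 1955 to 3363 lower over those without spike-in scaling. Leaving out single libraries gave 3759 to 3967 higher and 1990 to 2319 lower. Of 237 named genes, 57 lost their call with spike-in scaling and at most 14 in any other setting, and none changed sign among called values. The replicate numbers do not pair the libraries: deviations of same-numbered libraries had correlations of -0.05, -0.09 and -0.14. A replicate block gave 4022 higher and 2471 lower and changed the call of no named gene. With 3 libraries a group, small differences can be missed. The simulated counts held few changed genes, all of at least 5 CPM, while 43.1% of genes were called here. The share recovered in them therefore does not give the share missed in this comparison.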

Other observations

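Short-lived mRNAs often carry AU-rich letters in their 3′ UTR, and this was counted after the immediate early genes had been seen. Of 474 coding genes with a 3′ UTR of 500 to 1000 bases and at least 1 match to TATTTAT, 39.5% were higher with dCeMM-2, against 28.99% of 1797 genes without a match. The same shares were 37.3% of 872 and 32.3% of 1708 genes at 1000 to 2000 bases, and 38.3% of 1213 and 32.2% of 1073 genes at 2000 to 4000 bases. Genes with a match were also more often lower, at 18.8% against 16.6%, 22.1% against 17.4% and 23.7% against 21.1% in these classes. Over all UTR lengths, 32.5% of 684 genes with 3 or more matches were higher and 27.8% lower. Of 7679 genes with no match, 29.3% were higher and 16.3% lower. As 1 value a library, genes with 3 or more matches minus genes with none differed by -0.02 between the compounds (exact permutation test, two-sided, p = 0.9), so the median of the class did not differ detectably.

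Promoter letters were set beside the direction of change over all tested coding genes, as a description with no test. Of 324 promoters with the full cAMP response element TGACGTCA, 37.96% belonged to genes higher with dCeMM-2, against 31.1% of 9673 without it. Of the 29 immediate early genes with a promoter sequence, 3 held TGACGTCA, 16 its short form TGACG and 7 the letters TATAAA. Tested coding promoters hold these in 3.24%, 34.5% and 5.55%. The E-box CACGTG was in 6, the NRF2 element in 5, the heat shock element GAANNTTC in 3 and AP-1 in 1. These were in 10.1%, 14.96%, 4.50% and 4.24% of tested coding promoters.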
